A study of Mus musculus with 23 samples.

Results

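The genes described here are 32 genes of sterol and fatty acid synthesis, chosen by name: the enzymes from acetyl-coenzyme A to cholesterol, their transcriptional regulators, the enzymes that make and desaturate fatty acids, and the transporters that export sterol. Each gene was read from the probe set annotated to it alone with the highest mean over the arrays, which gave 31 of the 32 genes among 18194 measured. The expression of Nr1h2 was not analysed here, and its promoter is among those counted below. Gene expression was measured on 23 oligonucleotide arrays of total RNA from mouse CD4+ T cells gated on the surface for CD25, a subunit of the receptor for interleukin-2, and for CD49f, an integrin subunit. The 4 groups were CD25-CD49f- cells (7 arrays), CD25-CD49f+ cells (7 arrays), CD25+CD49f- cells (5 arrays) and CD25+CD49f+ cells (4 arrays). The labels name no genotype, strain, treatment, time or age, give the arrays as biological replicates and give the sex of the mice as female. They do not say which arrays came from the same mouse, so a spread between arrays of a group may be partly technical.

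Animal cells build cholesterol by the mevalonate pathway, which makes isoprenoids and then squalene, and by the closure and trimming of squalene's rings. The transcription factor SREBP2, coded by Srebf2, turns on these enzymes when sterol in the endoplasmic reticulum falls: SCAP escorts it to the Golgi, where it is cut free, and the INSIG proteins hold it back. SREBP1, coded by Srebf1, acts more on fatty acid synthesis, and LXR, a receptor for oxidised sterols, turns on the exporters Abca1 and Abcg1. T cells that divide need new membrane, and these pathways are known to rise in activated lymphocytes.

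Promoters are shown for genes called in the comparison with the most calls, CD25-CD49f+ against CD25-CD49f- cells, because sterol synthesis genes are classically read by SREBP together with the factors NF-Y and Sp1. Of the 6 genes called there, 3 had an entry in RefSeq's promoter table (build GRCm38.p6), which covers 250 bases before to 50 bases after the annotated start. In all, 25 of the 32 genes had an entry. The sequences run 5′ to 3′ on the gene's own strand, and capitals mark matches to CCAAT, the box read by NF-Y, and to GGGCGG, the box read by Sp1, on either strand.
Ebp (chrX:8193463-8193762, minus strand): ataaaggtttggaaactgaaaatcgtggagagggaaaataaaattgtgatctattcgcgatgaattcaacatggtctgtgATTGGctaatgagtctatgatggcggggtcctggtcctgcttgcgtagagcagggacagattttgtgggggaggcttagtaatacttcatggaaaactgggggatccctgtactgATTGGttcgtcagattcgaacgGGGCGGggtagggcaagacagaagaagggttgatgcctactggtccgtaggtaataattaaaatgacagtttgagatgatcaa
Lss (chr10:76531355-76531654, plus strand): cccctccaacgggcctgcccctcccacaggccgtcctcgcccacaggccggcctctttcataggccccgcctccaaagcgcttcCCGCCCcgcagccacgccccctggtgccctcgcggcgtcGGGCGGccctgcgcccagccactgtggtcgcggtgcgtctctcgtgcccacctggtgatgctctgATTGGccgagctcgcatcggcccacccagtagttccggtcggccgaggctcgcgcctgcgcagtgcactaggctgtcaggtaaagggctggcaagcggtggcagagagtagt
Nsdhl (chrX:72918271-72918570, plus strand): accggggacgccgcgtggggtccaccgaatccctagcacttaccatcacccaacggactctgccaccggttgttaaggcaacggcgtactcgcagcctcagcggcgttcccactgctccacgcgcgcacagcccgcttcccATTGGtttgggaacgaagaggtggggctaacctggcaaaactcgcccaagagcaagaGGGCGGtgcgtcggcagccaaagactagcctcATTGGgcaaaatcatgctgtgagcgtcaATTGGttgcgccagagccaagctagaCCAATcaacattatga

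Counted so that the annotated start is base 1 and the base before it -1, the leftmost bases of the CCAAT matches lay at -170 and -55 in Ebp, at -62 in Lss and at -109, -20, 9 and 35 in Nsdhl. Those of the GGGCGG matches lay at -33 in Ebp, at -166 and -127 in Lss and at -52 in Nsdhl. No match of one motif shared bases with a match of another in these 3 promoters. A CCAAT match stood in 20 of the 25 genes with an entry (80%), against 41.1% of the 27025 genes in the table. A GGGCGG match also stood in 20 of the 25 (80%), against 38.2% of all genes. The letters TCACNCCAC, a form of the sterol regulatory element, stood on either strand in 1 of the 25 (4%), Hmgcs1, against 1.44% of all genes. These matches are descriptions of letters, and the shares were not tested.

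The gates were checked on the transcripts of their markers. Il2ra, the gene of CD25, averaged 5.42 on the log2 scale, with an SD of 0.20 over 7 arrays, in the CD25-CD49f- group and 6.84 ± 0.24 (SD, n = 7) in the CD25-CD49f+ group. It stood at 9.69 ± 0.16 (SD, n = 5) in the CD25+CD49f- group and 9.60 ± 0.18 (SD, n = 4) in the CD25+CD49f+ group. Foxp3, which defines regulatory T cells, averaged 4.74 ± 0.32, 8.25 ± 0.22, 9.79 ± 0.08 and 9.85 ± 0.20 in that order. Itga6, which codes CD49f, averaged 9.79 ± 0.16, 9.36 ± 0.08, 9.64 ± 0.23 and 9.81 ± 0.03, so its transcript did not follow the CD49f gate in CD25- cells. All 7 measured T cell markers, Cd3e and Cd4 among them, had a mean above 6 in every group.

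A total of 4 arrays stood apart, with a median correlation to the other arrays of their group between 0.967 and 0.982, against at least 0.989 for the other 19. They were CD25-CD49f- replicates 1 and 7, CD25-CD49f+ replicate 1 and CD25+CD49f- replicate 5. In CD25+CD49f- replicate 5 the 3' probe set of Actb exceeded its 5' probe set by 4.83 on the log2 scale, against 1.22 to 2.70 on the other arrays. The 2.70 was that of CD25-CD49f- replicate 1, which also stood apart, and the next highest was 2.09. CD25+CD49f- replicate 5 showed both Xist and Y-linked transcripts, whereas 12 arrays showed Xist alone and 10 Y-linked transcripts alone. The female label is thus contradicted by the 11 arrays with Y-linked transcripts. Results are therefore given over 23 arrays and over the 19 that remained. The 4 arrays were picked by correlations of these same values, and leaving them out narrows the spread within groups. Adjusted p-values over 19 arrays may therefore be too small, and calls made over 19 arrays alone are weaker evidence than those over 23. Differences below are log2 values with standard errors from limma, and a gene was called at a Benjamini-Hochberg adjusted p under 0.05 over 18194 genes. Because these are bulk samples, fewer cells of a type and less RNA per cell cannot be told apart.

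Among CD25- cells, the CD49f+ cells had more transcript of Scd2, a fatty acid desaturase, of the sterol enzymes Ebp and Nsdhl and of the sterol carrier Stard4, and less of the sterol cyclase Lss and the exporter Abcg1. In CD25-CD49f+ against CD25-CD49f- cells, 4 of 31 genes rose (Scd2, Ebp, Stard4 and Nsdhl; 12.9%, against 8.01% of all genes) and 2 fell (Lss and Abcg1; 6.45%, against 5.42%). Over 19 arrays 6 rose (19.4%, against 10.3%) and 3 fell (9.68%, against 8.76%), with Fdft1 and Sc5d added above and Msmo1 below. The median difference of the 31 genes was 0.08 over 23 arrays and -0.01 over 19, against -0.02 of all genes in both fits. None of the mevalonate enzymes was among those called, and the calls lay in the later sterol steps, sterol transport, desaturation and export. Beside them, 18 of 19 measured cell cycle genes rose (median difference 2.16), and whether cell division had a part in these differences was not tested.

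Between the CD25+ groups, limma called no gene higher or lower with CD49f over 23 arrays, against 0.352% of all genes higher and 1.47% lower, and 3 of 31 had an unadjusted p under 0.05 (Scd2, Mvd and Lss). Over 19 arrays Scd2 rose and Mvd fell, each 3.23% of the 31 genes, against 0.791% and 2.44% of all genes. The CD25 gate within CD49f+ cells gave 0 calls over 23 arrays, against 2.81% higher and 2.91% lower, with 2 unadjusted p-values under 0.05 (Abca1 and Lss). Over 19 arrays Abca1 and Abcg1 rose (6.45%, against 6% of all genes) and Hmgcs1, Sqle, Cyp51, Ebp and Sc5d fell (16.1%, against 6.97%). Within CD49f- cells Hsd17b7 rose and Lss fell with CD25 over 23 arrays, each 3.23% of the genes, against 9.34% higher and 4.68% lower. Over 19 arrays 5 rose (Mvd, Fdft1, Hsd17b7, Ebp and Abca1; 16.1%, against 12.4%) and 2 fell (Hmgcs1 and Lss; 6.45%, against 7.28%). The comparisons share groups, so their calls are not independent of each other. The percentages of all genes are those called at the adjusted threshold. The share with an unadjusted p under 0.05 is not given here, so the counts at that threshold cannot be set against all genes.

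**Figure D1:**
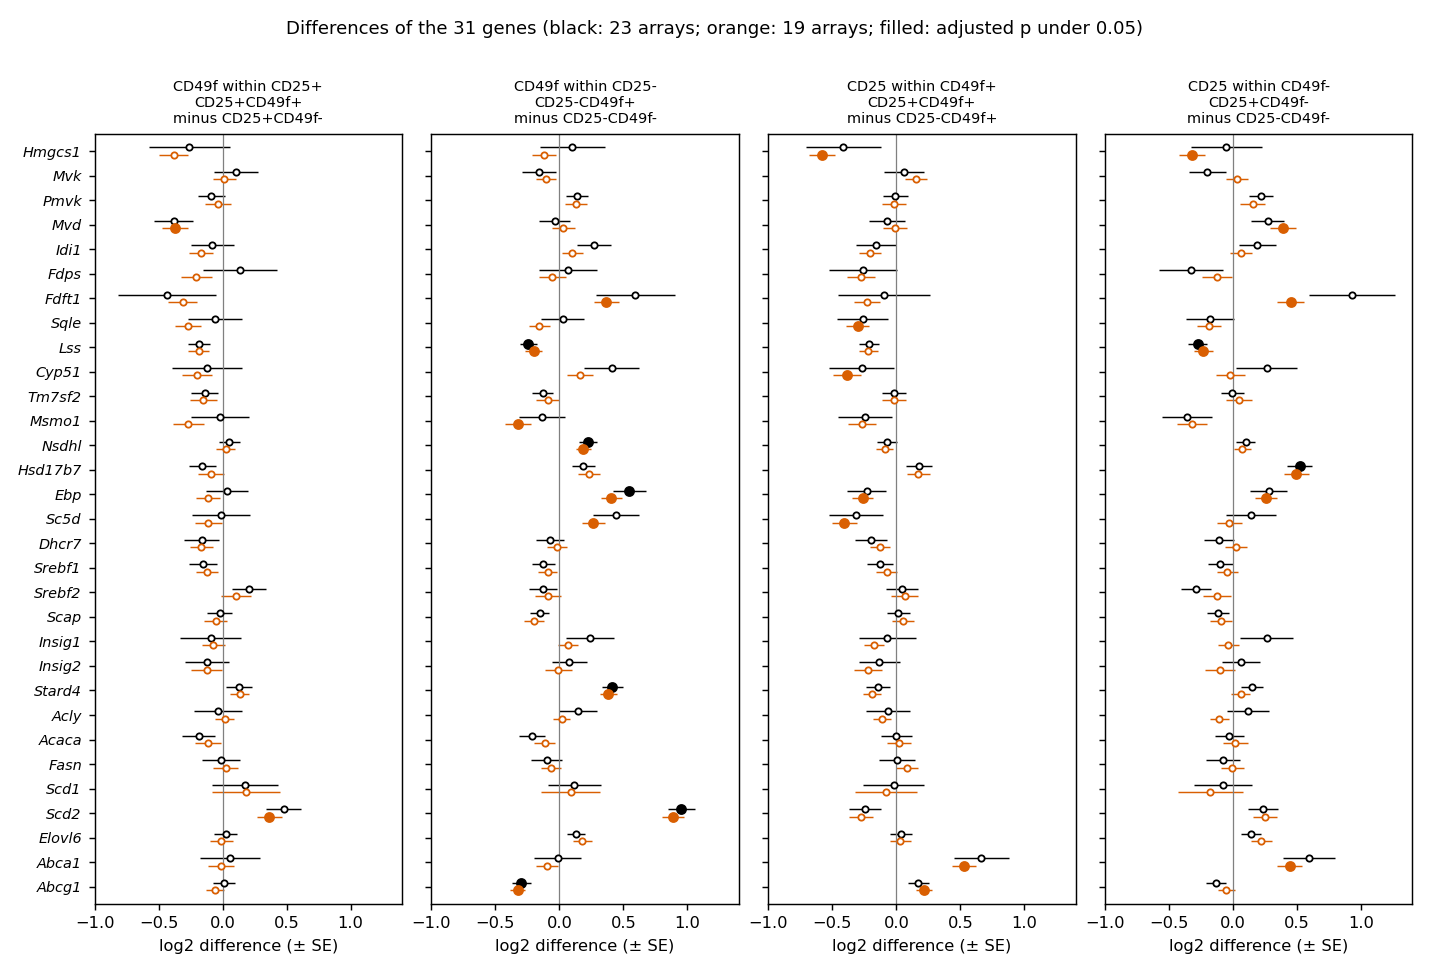
Log2 differences with standard errors (x axis) of the 31 genes (y axis) in 4 comparisons, one panel each; black points are fits over 23 arrays, orange points fits over 19, and filled points had an adjusted p under 0.05. Scd2 stands farthest from 0 in CD25-CD49f+ against CD25-CD49f- cells (0.95), and Hmgcs1, Fdft1 and Cyp51 have the wide black bars that narrow without the 4 arrays.

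The mevalonate enzymes carry acetyl units to farnesyl pyrophosphate. Hmgcs1, which condenses the first building block of the pathway, ranged from 7.56 to 9.79 with a median of 9.32 in CD25-CD49f- cells and from 8.20 to 9.49 with a median of 9.43 in CD25-CD49f+ cells. It read 9.20, 9.31, 8.93, 9.26 and 8.56 in CD25+CD49f- cells and 8.67, 8.92, 8.65 and 8.93 in CD25+CD49f+ cells. The lowest arrays of the first 3 groups were CD25-CD49f- replicate 7, CD25-CD49f+ replicate 1 and CD25+CD49f- replicate 5, all among the 4 that stood apart. Over 23 arrays no Hmgcs1 difference was called. Over 19 arrays Hmgcs1 fell with CD25 in CD49f+ cells (-0.58 ± 0.10, adjusted p = 1.98e-04) and in CD49f- cells (-0.32 ± 0.11, adjusted p = 0.0306). All 4 values in CD25+CD49f+ cells lay below the 6 in CD25-CD49f+ cells that remained.

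The 5 probe sets of Hmgcs1 did not read those arrays alike. On CD25-CD49f- replicate 7 the probe set used gave 7.56, against 9.30 to 9.79 on the 5 remaining arrays of the group, and another probe set of like brightness gave 7.13, against 9.21 to 10. A further one gave 9.27, within its range of 8.75 to 9.31. With that probe set the decrease with CD25 in CD49f+ cells was present over all 23 arrays (-0.56 ± 0.13, adjusted p = 0.00807 over 34958 probe sets, of which 4.02% were called in either direction). The remaining probe sets not used averaged 8.92, 6.85 and 3.98 in CD25+CD49f+ cells, against 9.22, 7.25 and 4.20 in CD25-CD49f+ cells. Whether they were called is not given here.

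Mvd, the decarboxylase that makes isopentenyl pyrophosphate, ranged from 5.90 to 6.95 with a median of 6.19 in CD25-CD49f- cells and from 5.98 to 6.60 with a median of 6.17 in CD25-CD49f+ cells. It read 6.35, 6.63, 6.64, 6.49 and 6.57 in CD25+CD49f- cells and 5.98, 6.14, 6.39 and 6.12 in CD25+CD49f+ cells. Of the CD25+CD49f- arrays, 4 read 6.49 or more, which among the other groups was reached on CD25-CD49f- replicate 7 and CD25-CD49f+ replicate 1 alone, both of which stood apart. Mvd was not called over 23 arrays (-0.38 ± 0.15 with CD49f in CD25+ cells, adjusted p = 0.424, and 0.27 ± 0.13 with CD25 in CD49f- cells, adjusted p = 0.224, against 0.38 and 0.00991 without CD25-CD49f- replicate 7). Over 19 arrays both were called, at -0.37 ± 0.10 (adjusted p = 0.0496) and 0.39 ± 0.10 (adjusted p = 0.00538). The dim second probe set of Mvd differed by -0.27 (adjusted p = 0.401 over probe sets) and 0.15 (adjusted p = 0.465) over those arrays.

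Pmvk, the kinase that follows Mvk, ranged from 6.56 to 6.84 (median 6.78) in CD25-CD49f- cells and from 6.79 to 7.02 (median 6.84) in CD25-CD49f+ cells. It read 6.88, 6.86, 7.13, 6.72 and 7.17 in CD25+CD49f- cells and 6.63, 6.84, 7.20 and 6.79 in CD25+CD49f+ cells. The groups overlapped, and Pmvk was not called in any comparison (largest difference 0.22 ± 0.09 with CD25 in CD49f- cells, adjusted p = 0.136). Mvk, the mevalonate kinase, Idi1, the isomerase of isopentenyl pyrophosphate, and Fdps, the farnesyl pyrophosphate synthase, were not called in any comparison in either fit.

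From squalene to cholesterol, 11 enzymes were measured. Ebp, the sterol isomerase that moves a ring double bond, ranged from 8.14 to 8.98 with a median of 8.70 in CD25-CD49f- cells and from 8.95 to 9.32 with a median of 9.15 in CD25-CD49f+ cells. It read 8.94, 9.26, 8.99, 8.92 and 8.26 in CD25+CD49f- cells and 8.91, 9.02, 8.89 and 8.81 in CD25+CD49f+ cells. The CD25- groups overlapped by a single CD25-CD49f- array at 8.98, above the CD25-CD49f+ array at 8.95, which stood apart. Ebp rose by 0.55 ± 0.13 (adjusted p = 0.00422) between them over 23 arrays and by 0.41 ± 0.08 (adjusted p = 4.15e-04) over 19. The difference between the CD49f effects of CD25+ and CD25- cells was -0.51 ± 0.21 (adjusted p = 0.226) over 23 arrays, -0.66 (adjusted p = 0.0259) without CD25+CD49f- replicate 5 and -0.52 ± 0.12 (adjusted p = 0.00481) over 19. Over 19 arrays Ebp also fell with CD25 in CD49f+ cells (-0.26 ± 0.08, adjusted p = 0.0384) and rose with CD25 in CD49f- cells (0.26 ± 0.09, adjusted p = 0.0374). The latter difference was 0.28 ± 0.14 (adjusted p = 0.255) over 23 arrays and 0.43 (adjusted p = 0.022) without CD25+CD49f- replicate 5.

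Nsdhl, which removes a carboxyl group from the sterol ring, ranged from 7.88 to 8.30 (median 8.19) in CD25-CD49f- cells and from 8.29 to 8.49 (median 8.40) in CD25-CD49f+ cells. It read 8.30, 8.34, 8.18, 8.40 and 8.15 in CD25+CD49f- cells and 8.33, 8.47, 8.27 and 8.25 in CD25+CD49f+ cells. A single CD25-CD49f- array at 8.30 exceeded the lowest CD25-CD49f+ array, which stood apart. The increase was 0.22 ± 0.07 (adjusted p = 0.0273) over 23 arrays and 0.19 ± 0.06 (adjusted p = 0.0307) over 19. It was not called with arrays rescaled to equal medians (0.19) or quantiles (0.18), nor with the replicate number as a fixed block (0.22, adjusted p = 0.0525) or the CD25- groups fitted alone (0.22, adjusted p = 0.053), nor without CD25-CD49f- replicate 7 (0.17, adjusted p = 0.057), CD25-CD49f+ replicate 4 (0.21, adjusted p = 0.0628) or CD25-CD49f+ replicate 7 (0.22, adjusted p = 0.054).

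Lss, the cyclase that closes the first sterol ring system, moved the other way from Ebp and Nsdhl. It ranged from 7.43 to 7.88 (median 7.68) in CD25-CD49f- cells and from 7.32 to 7.59 (median 7.43) in CD25-CD49f+ cells. It read 7.27, 7.45, 7.45, 7.43 and 7.39 in CD25+CD49f- cells and 7.17, 7.34, 7.13 and 7.22 in CD25+CD49f+ cells. Of the CD25-CD49f- arrays, 6 lay above every array of the other groups, and the CD25+CD49f+ arrays were the lowest, with 1 array overlapping the others. Lss fell with CD49f in CD25- cells (-0.25 ± 0.07, adjusted p = 0.0129) and with CD25 in CD49f- cells (-0.28 ± 0.07, adjusted p = 0.00922). Over 19 arrays the differences were -0.20 ± 0.07 (adjusted p = 0.0429) and -0.23 ± 0.08 (adjusted p = 0.034). A dimmer probe set of Lss also fell between the CD25- groups (-0.55 ± 0.15, adjusted p = 0.0148 over probe sets, of which 11.1% were called), and a further one differed by 0.03 ± 0.09 (adjusted p = 0.897).

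Hsd17b7, a ketone reductase of the same steps, ranged from 6.72 to 7.24 (median 7.01) in CD25-CD49f- cells and from 7.02 to 7.44 (median 7.20) in CD25-CD49f+ cells. It read 7.37, 7.60, 7.46, 7.47 and 7.80 in CD25+CD49f- cells and 7.26, 7.45, 7.56 and 7.26 in CD25+CD49f+ cells. Every CD25+CD49f- array lay above every CD25-CD49f- array, and the increase with CD25 in CD49f- cells was 0.52 ± 0.10 (adjusted p = 2.52e-04) over 23 arrays and 0.49 ± 0.10 (adjusted p = 4.68e-04) over 19. None of the other 3 probe sets of Hsd17b7 was called, at differences of 0.02 ± 0.08 (adjusted p = 0.934), 0.05 ± 0.10 (adjusted p = 0.864) and -0.04 ± 0.09 (adjusted p = 0.903), against 11.4% of all probe sets called. With the mean of all 4 probe sets the difference was 0.14 and was not called, so the increase rests on 1 probe set.

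Fdft1, the squalene synthase that commits the pathway to sterols, had the widest spread of the 31 genes. It ranged from 5.02 to 7.89 (median 7.64) in CD25-CD49f- cells and from 7.15 to 8.30 (median 8.06) in CD25-CD49f+ cells. It read 7.90, 8.12, 8.34, 8.26 and 8.76 in CD25+CD49f- cells and 7.51, 8.08, 7.92 and 7.85 in CD25+CD49f+ cells. The lowest value of each CD25- group came from an array that stood apart, and over 23 arrays no difference was called (0.93 ± 0.34 with CD25 in CD49f- cells, adjusted p = 0.07, against 0.54 and 0.0192 without CD25-CD49f- replicate 7). Over 19 arrays Fdft1 rose with CD49f in CD25- cells (0.37 ± 0.10, adjusted p = 0.00756) and with CD25 in CD49f- cells (0.45 ± 0.11, adjusted p = 0.00317), and the interaction was -0.68 ± 0.15 (adjusted p = 0.00294). Its second probe set read 7.15 on CD25-CD49f- replicate 7, above its range of 6.51 to 6.87 on the remaining arrays, and rose with CD49f in CD25- cells over all 23 arrays (0.33 ± 0.10, adjusted p = 0.0409 over probe sets). Its 2 dim probe sets had differences of the other sign there, -0.20 ± 0.12 (adjusted p = 0.388) and -0.14 ± 0.13 (adjusted p = 0.597).

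Sc5d, the desaturase near the end of the pathway, ranged from 5.73 to 7.37 (median 7.12) in CD25-CD49f- cells and from 6.74 to 7.49 (median 7.41) in CD25-CD49f+ cells. It read 6.94, 7.28, 6.95, 7.20 and 6.61 in CD25+CD49f- cells and 6.92, 7.11, 6.95 and 6.96 in CD25+CD49f+ cells. The groups overlapped over 23 arrays and no difference was called, although that between the CD25- groups was without CD25-CD49f+ replicate 1 (0.53, adjusted p = 0.0438). Over 19 arrays Sc5d rose with CD49f in CD25- cells (0.27 ± 0.09, adjusted p = 0.0371) and fell with CD25 in CD49f+ cells (-0.41 ± 0.10, adjusted p = 0.00416). Its other probe sets were not called in either comparison over these arrays. The one of similar brightness differed with CD49f by -0.21 and with CD25 by -0.29 (adjusted p = 0.344 over probe sets), and the dim one by 0.02 (adjusted p = 0.924) and 0.09 (adjusted p = 0.578).

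Of the other sterol enzymes, 3 were called over 19 arrays and none over 23. Sqle, the squalene epoxidase, and Cyp51, the lanosterol demethylase, fell with CD25 in CD49f+ cells (-0.30 ± 0.09, adjusted p = 0.0271, and -0.38 ± 0.11, adjusted p = 0.0176). The dimmer probe sets of Cyp51 averaged 5.31 and 4.93 in CD25+CD49f+ cells over these arrays, against 5.43 and 4.85 in CD25-CD49f+ cells. Msmo1, a methylsterol oxidase, fell with CD49f in CD25- cells (-0.33 ± 0.10, adjusted p = 0.0279). Tm7sf2, a sterol reductase, and Dhcr7, the last reductase of one branch, were not called in any comparison in either fit.

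**Figure D2:**
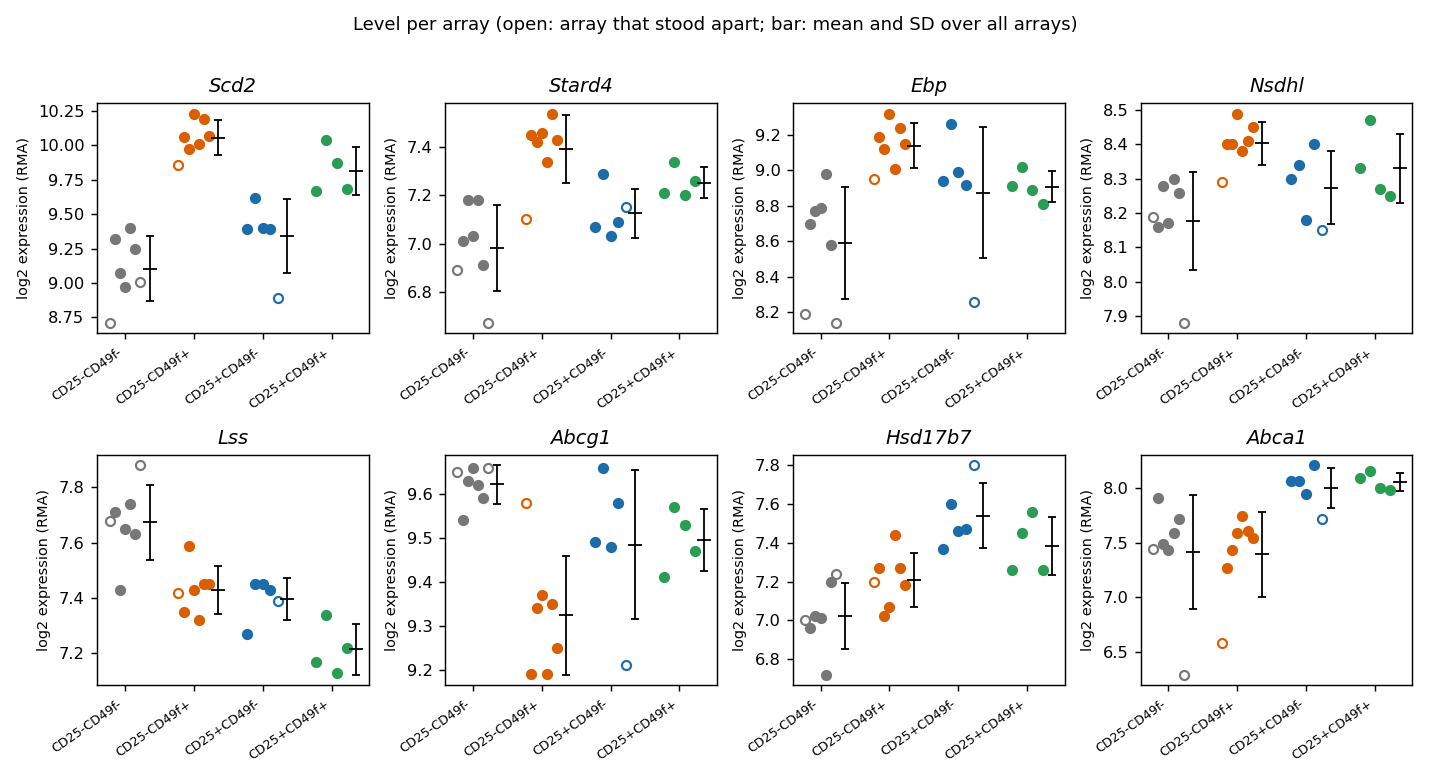
Log2 expression (y axis) of 8 genes on each of the 23 arrays by group (x axis); open points are the 4 arrays that stood apart and bars give the mean and SD over all arrays of the group. Scd2 values of CD25-CD49f+ cells (9.86 to 10.23) lie above all those of CD25-CD49f- cells (8.71 to 9.40), and Abca1 values of both CD25+ groups lie above most CD25- values.

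None of the 5 regulators of the pathway was called over 23 or over 19 arrays. Srebf2 ranged from 7.66 to 8.25 (median 8.07) in CD25-CD49f- cells and from 7.71 to 8.13 (median 7.90) in CD25-CD49f+ cells. It read 7.96, 8.11, 7.56, 7.78 and 7.33 in CD25+CD49f- cells and 7.79, 8.11, 7.93 and 7.99 in CD25+CD49f+ cells. The groups overlapped, and its largest difference, with CD25 in CD49f- cells, was -0.29 ± 0.12 (adjusted p = 0.112) over 23 arrays and -0.13 ± 0.11 over 19, not called. Over 23 arrays it was called lower with quantile scaling (-0.34, adjusted p = 0.0469) and median scaling (-0.35, adjusted p = 0.0404), and without CD25-CD49f- replicate 3 (-0.35, adjusted p = 0.0364) or CD25+CD49f- replicate 2 (-0.38, adjusted p = 0.0307). Scap was called lower with the mean of its probe sets, with CD49f in CD25- cells (-0.32, adjusted p = 0.00508) and with CD25 in CD49f- cells (-0.37, adjusted p = 0.00316). Its bright probe set, the one used, averaged 9.06, 8.90 and 8.94 in CD25-CD49f-, CD25-CD49f+ and CD25+CD49f- cells. The dim one averaged 5.23, 4.74 and 4.61, so most of the Scap decrease lay in the dim probe set. Srebf1, Insig1 and Insig2 were called under none of the settings tried. These are transcript levels, and the release of SREBP from the membrane was not measured.

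Stard4, which carries cholesterol between membranes, was called between the CD25- groups. It ranged from 6.67 to 7.18 (median 7.01) in CD25-CD49f- cells and from 7.10 to 7.54 (median 7.43) in CD25-CD49f+ cells. It read 7.07, 7.29, 7.03, 7.09 and 7.15 in CD25+CD49f- cells and 7.21, 7.34, 7.20 and 7.26 in CD25+CD49f+ cells. The CD25- groups overlapped through CD25-CD49f+ replicate 1 alone, which stood apart. The increase was 0.41 ± 0.08 (adjusted p = 4.72e-04) over 23 arrays and 0.38 ± 0.07 (adjusted p = 1.19e-04) over 19, and the other 2 probe sets rose by 0.65 ± 0.18 (adjusted p = 0.0175 over probe sets) and differed by 0.38 ± 0.16 (adjusted p = 0.14).

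Among the fatty acid genes, Scd2, a desaturase that makes monounsaturated fatty acids, had the largest difference of the 31 genes. It ranged from 8.71 to 9.40 (median 9.07) in CD25-CD49f- cells and from 9.86 to 10.23 (median 10.06) in CD25-CD49f+ cells. It read 9.39, 9.62, 9.40, 9.39 and 8.89 in CD25+CD49f- cells and 9.67, 10.04, 9.87 and 9.68 in CD25+CD49f+ cells. In both pairs the CD49f+ arrays lay above all CD49f- arrays. The increase was 0.95 ± 0.11 (1.94-fold, adjusted p = 2.99e-07) in CD25- cells over 23 arrays and 0.89 ± 0.09 (adjusted p = 2.26e-08) over 19. In CD25+ cells the difference was 0.48 ± 0.14 (adjusted p = 0.0797) over 23 arrays, 0.48 without CD25-CD49f- replicate 1 (adjusted p = 0.0462), 0.55 without CD25+CD49f- replicate 2 (adjusted p = 0.0413) and 0.37 ± 0.10 (adjusted p = 0.0446) over 19.

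The CD49f effects on Scd2 in CD25+ and CD25- cells differed by -0.48 ± 0.17 (adjusted p = 0.142) over 23 arrays, by -0.59 (adjusted p = 0.0233) without CD25+CD49f- replicate 5 and by -0.52 ± 0.13 (adjusted p = 0.0104) over 19. The 2 dimmer probe sets of Scd2 rose by 0.86 ± 0.19 (adjusted p = 0.00321 over probe sets) and 1.03 ± 0.32 (adjusted p = 0.0367) in CD25- cells. Among arrays without Y-linked transcripts Scd2 differed by 0.99 (adjusted p = 4.95e-04) between the CD25- groups, and among those with Y-linked transcripts and without Xist by 0.90 (adjusted p = 0.00111). On the same split Ebp differed by 0.46 (adjusted p = 0.101) and 0.66 (adjusted p = 0.026), and Stard4 by 0.29 (adjusted p = 0.186) and 0.58 (adjusted p = 0.0144). Nsdhl, Lss and Abcg1 kept their direction and were called in neither subset.

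Acaca, which makes malonyl-coenzyme A, ranged from 7.77 to 8.51 (median 8) in CD25-CD49f- cells and from 7.68 to 7.95 (median 7.86) in CD25-CD49f+ cells. It read 7.78, 8.13, 7.97, 7.90 and 8.31 in CD25+CD49f- cells and 7.75, 7.86, 8.14 and 7.58 in CD25+CD49f+ cells. The groups overlapped, and no difference was called (-0.22 ± 0.10 with CD49f in CD25- cells, adjusted p = 0.209). Acly, which makes acetyl-coenzyme A from citrate, Fasn, the fatty acid synthase, Scd1, a desaturase related to Scd2, and Elovl6, an elongase, were not called in any comparison in either fit. Scd1 varied within every group, from 5.97 to 7.35 in CD25+CD49f- cells and from 6.34 to 7.45 in CD25+CD49f+ cells.

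The sterol exporters followed the gates differently. Abca1, which loads cholesterol onto lipoprotein, ranged from 6.29 to 7.91 (median 7.49) in CD25-CD49f- cells and from 6.58 to 7.74 (median 7.54) in CD25-CD49f+ cells. It read 8.07, 8.07, 7.95, 8.21 and 7.72 in CD25+CD49f- cells and 8.09, 8.16, 8 and 7.98 in CD25+CD49f+ cells. The CD25+ arrays lay above the CD25- arrays except CD25+CD49f- replicate 5, which stood apart. Over 23 arrays the differences with CD25 were 0.67 ± 0.22 (adjusted p = 0.0772) in CD49f+ cells and 0.59 ± 0.20 (adjusted p = 0.051) in CD49f- cells. The first was called without CD25-CD49f- replicate 7 (adjusted p = 0.00481), and the second without any one of CD25-CD49f- replicate 2, CD25-CD49f- replicate 6, CD25-CD49f+ replicate 1 and CD25+CD49f- replicate 5 (adjusted p from 0.0205 to 0.0413). Over 19 arrays both were called, at 0.53 ± 0.09 (adjusted p = 2.60e-04) and 0.44 ± 0.10 (adjusted p = 0.00148). The 2 other probe sets of Abca1, which averaged 4.02 and 3.22, were not called in either comparison.

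Abcg1, an exporter to lipoprotein particles, ranged from 9.54 to 9.66 (median 9.63) in CD25-CD49f- cells and from 9.19 to 9.58 (median 9.34) in CD25-CD49f+ cells. It read 9.49, 9.66, 9.48, 9.58 and 9.21 in CD25+CD49f- cells and 9.41, 9.57, 9.53 and 9.47 in CD25+CD49f+ cells. CD25-CD49f+ replicate 1, which stood apart, was the array of its group that reached the CD25-CD49f- range. Abcg1 fell by 0.30 (SE 0.07, adjusted p = 0.00415) with CD49f in CD25- cells over 23 arrays and by 0.33 (SE 0.06, adjusted p = 2.11e-04) over 19. In CD25+CD49f+ against CD25-CD49f+ cells it differed by 0.17 ± 0.08 (adjusted p = 0.38) over 23 arrays and rose by 0.21 ± 0.06 (adjusted p = 0.0249) over 19. Its dimmer probe set differed by -0.20 ± 0.11 between the CD25- groups (adjusted p = 0.324 over probe sets).

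Several sterol enzymes had a wide spread between arrays of a group. The pooled within-group SD was 0.64 for Fdft1, 0.52 for Hmgcs1, 0.47 for Fdps and 0.45 for Cyp51, and 10 of the 31 genes lay above the 90th percentile of all genes. Lss, Nsdhl, Abcg1 and Elovl6 lay below the 10th percentile. Over 19 arrays 1 of the 31, Scd1 (0.46), was above the 90th percentile. The median SD of the 31 genes was 0.24 over 23 arrays and 0.14 over 19, where that of all genes was 0.19 and 0.14. On CD25-CD49f- replicate 7, 14 genes (45.2%) departed from the group mean by over 0.5, 10 downward and 4 upward, against 21.5% of all genes. On CD25-CD49f+ replicate 1 it was 8 genes (25.8%), against 11.3% of all genes.

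Genes of one step departed in opposite directions. On both of those arrays 14 genes read below all other arrays of their group, among them Hmgcs1, Idi1, Fdft1, Cyp51 and Abca1, whereas 6 read above them (Mvk, Mvd, Dhcr7, Srebf1, Acaca and Fasn). On CD25-CD49f- replicate 1 Fdps and Msmo1 read 5.80 and 7.30, and on CD25+CD49f- replicate 5 they read 5.16 and 6.64, the lowest of their groups. Where several probe sets measured a gene, they could part: on CD25-CD49f- replicate 7 the Cyp51 probe set used read 5.56, against 7.04 to 7.42 on the remaining arrays, while a dimmer one read 5.34, within 4.65 to 5.70. Both bright probe sets of Idi1 read low on that array, at 7.25 and 6.35.

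**Figure D3:**
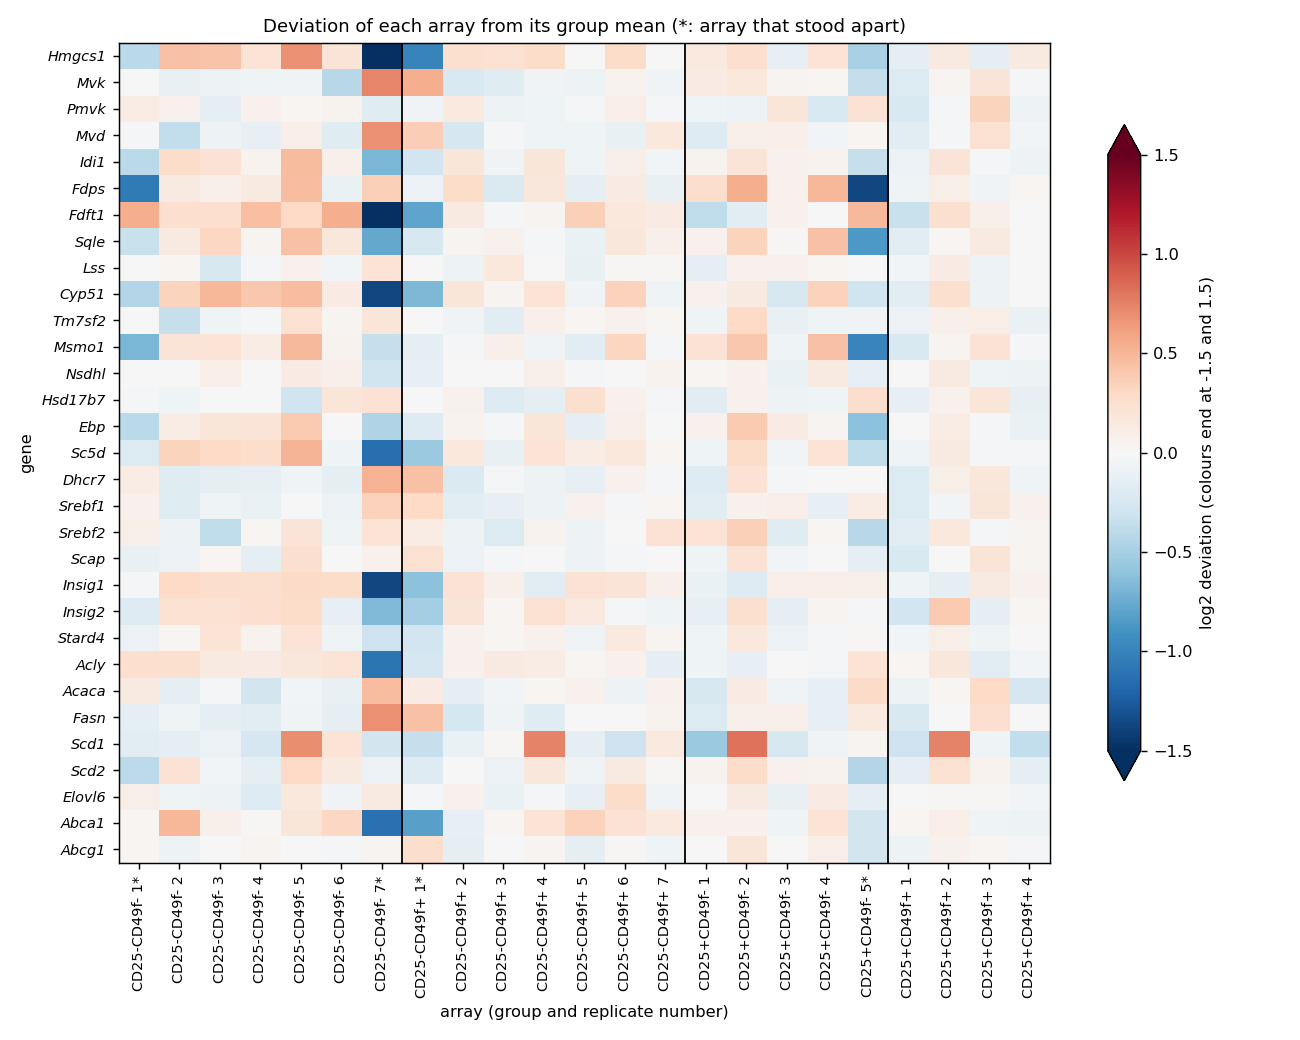
Log2 deviation of each of the 31 genes (rows) from its group mean on each of the 23 arrays (columns, marked with a star where the array stood apart); blue is below and red above the group mean, and colours end at -1.5 and 1.5. The deepest colours lie in CD25-CD49f- replicate 7, where 10 genes are lower and 4 higher than the group mean by over 0.5.

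**Figure D4:**
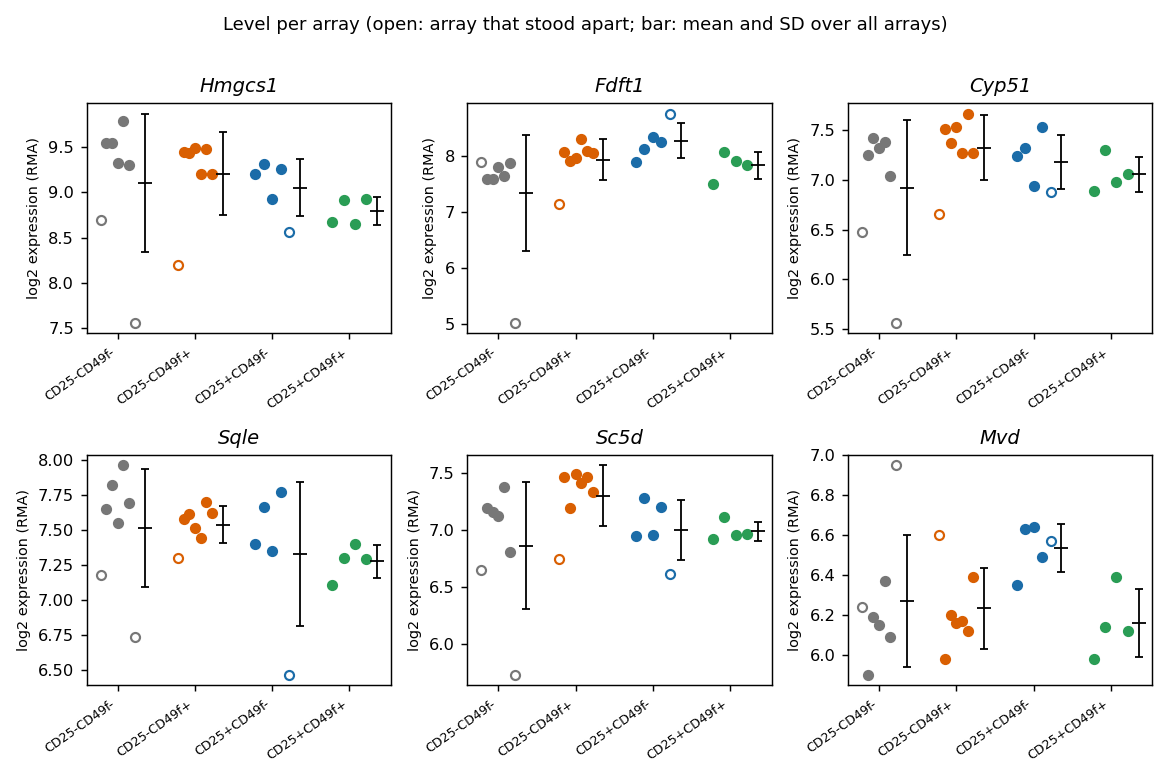
Log2 expression (y axis) of Hmgcs1, Fdft1, Cyp51, Sqle, Sc5d and Mvd on each array by group (x axis); open points are the 4 arrays that stood apart and bars give the mean and SD over all arrays. Fdft1 reads 5.02 on CD25-CD49f- replicate 7 and 7.60 or more on the other arrays of that group.

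Cell cycle genes and markers of other cells moved with the same comparisons. The mean level of the 19 measured cell cycle genes ranged from 8.59 to 9.18 over CD25-CD49f+ arrays and from 6.67 to 7.28 over CD25-CD49f- arrays. In CD25+CD49f+ against CD25+CD49f- cells 8 of 19 rose (median difference 0.70), and in CD25+CD49f+ against CD25-CD49f+ cells 11 of 19 fell (median -0.89), the comparison in which Hmgcs1, Sqle, Cyp51, Ebp and Sc5d fell over 19 arrays. With CD25 in CD49f- cells, where Hsd17b7 rose and, over 19 arrays, Mvd, Fdft1, Ebp and Abca1 did too, 13 of 19 rose over 23 arrays (median 0.63) and 14 over 19. Their part in the lipid gene differences was not tested.

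Of 8 myeloid and dendritic cell markers, 4 fell between CD25-CD49f- and CD25-CD49f+ cells and 4 between CD25-CD49f- and CD25+CD49f- cells. Itgax, a dendritic cell integrin, fell by 1.92 in the first and fell by 2.42 in the second. Their mean level ranged from 6.21 to 7.77 over CD25-CD49f- arrays, 6.25 to 6.82 over CD25-CD49f+ arrays, 5.78 to 6.32 over CD25+CD49f- arrays and 5.91 to 6.53 over CD25+CD49f+ arrays. With CD49f in CD25- cells 3 of the 8 had a positive difference, and with CD25 in CD49f- cells 0 did. Those 3, Lyz2, Itgam and Cd14, averaged 9.22, 4.18 and 5.57 in CD25-CD49f- cells and 9.28, 4.21 and 5.59 in CD25-CD49f+ cells. The higher level of the markers that fell stood beside the higher Lss and Abcg1 in CD25-CD49f- cells, and their part in them was not tested. The mean level of 5 B cell markers ranged from 5.73 to 6.80 over CD25-CD49f- arrays and from 6.20 to 6.96 over CD25-CD49f+ arrays. All 6 regulatory T cell markers rose with CD49f in CD25- cells (median difference 2.27), with CD25 in CD49f- cells (3.65) and with CD25 in CD49f+ cells (1.05). Of 5 NK cell markers, 2 rose and 1 fell with CD49f in CD25- cells, and 3 rose and 1 fell with CD25 in CD49f- cells. The one that fell was Prf1, which codes perforin, at -1.48 ± 0.14 and -1.54 ± 0.15. With CD49f in CD25+ cells Eomes fell by 0.75, and with CD25 in CD49f+ cells Nkg7 fell by 0.53. The part of these markers in the lipid gene differences was not tested.

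A further 42 genes of lipid handling, 38 of them measured, were read in the same fits. With CD49f in CD25- cells 2 rose (5.26%, against 8.01% of all genes) and 8 fell (21.1%, against 5.42%) over 23 arrays. Over 19 arrays 5 rose (13.2%, against 10.3%) and 10 fell (26.3%, against 8.76%). Fabp5, a fatty acid binding protein, rose by 1.36 ± 0.12 (adjusted p = 2.62e-09), and Mid1ip1, an activator of acetyl-coenzyme A carboxylase, by 0.86 ± 0.13 (adjusted p = 1.47e-05). Acss2, which makes acetyl-coenzyme A from acetate and is a known SREBP target, fell by 0.77 (SE 0.11, adjusted p = 5.38e-06), and Mylip, an LXR target that leads to the loss of a lipoprotein receptor, by 0.56 (SE 0.10, adjusted p = 1.48e-04). Acss2 thus moved against Ebp, Stard4 and Nsdhl in the same cells, and in the same direction as Lss and, over 19 arrays, Msmo1.

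With CD25 in CD49f- cells 2 of the 38 rose (5.26%, against 9.34% of all genes) and 8 fell (21.1%, against 4.68%) over 23 arrays. Over 19 arrays 5 rose (13.2%, against 12.4%) and 10 fell (26.3%, against 7.28%). Fabp5 rose by 2.14 ± 0.13 (adjusted p = 2.17e-12). Acss2 fell by 0.87 (SE 0.12, adjusted p = 2.93e-06), Mylip by 0.79 (SE 0.11, adjusted p = 4.02e-06) and Cyp27a1, which oxidises cholesterol to an LXR ligand, by 1.00 (SE 0.18, adjusted p = 2.35e-04). In CD49f+ cells Fabp5 rose with CD25 by 0.73 ± 0.14 (adjusted p = 8.95e-04) and Acss2 fell by 0.71 (SE 0.12, adjusted p = 3.65e-04), and over 19 arrays 1 rose (2.63%, against 6% of all genes) and 6 fell (15.8%, against 6.97%). In CD25+CD49f+ against CD25+CD49f- cells Acss2 was the 1 gene called (2.63%, against 1.47% of all genes; -0.60 ± 0.13, adjusted p = 0.0101), so it was lower in each of the 4 comparisons, and lowest in CD25+CD49f+ cells.

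The test of unequal CD49f effects in CD25+ and CD25- cells called 0 of the 31 genes by limma over 23 arrays, against 5.31% of all genes. It gave 6 unadjusted p-values under 0.05, and the share of all genes at that threshold is not given here. Over 19 arrays it called 3 (9.68%, against 9.4%), Fdft1, Ebp and Scd2. Fdft1 differed with CD49f by -0.31 ± 0.11 in CD25+ cells and 0.37 ± 0.10 in CD25- cells, Ebp by -0.12 ± 0.09 and 0.41 ± 0.08, and Scd2 by 0.37 ± 0.10 and 0.89 ± 0.09. Of the other lipid genes, Fabp5 (-1.41 ± 0.19, adjusted p = 1.18e-05), Mid1ip1 (-0.73 ± 0.20, adjusted p = 0.0325) and Cyp27a1 (0.92 ± 0.27, adjusted p = 0.0422) were called over 23 arrays.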

How the data were processed

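RNA of 23 samples was measured on 45101 probe sets. Per the submitters' processing notes the deposited log2 values were made by RMA (version not given in the sources used here). Of the probe sets, 34958 are listed with a single gene, 932 with several and 9211 without one, and 34754 were matched to RefSeq (GRCm38.p6) by Entrez identifier. The probe set of highest mean stood for each of 18194 genes.

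A group-means model was fitted to all arrays and genes with limma 3.58.1 (R 4.3.3), giving 4 differences and their interaction, with Benjamini-Hochberg adjustment over all genes in each. It was tested on simulated data. The probe set fit covered all 34958. Array quality was read from correlations within groups (under 0.985 stood apart). Values per array were given for the 14 genes of smallest p, and for Hmgcs1, added after its values were seen. The genes and lists were chosen with earlier results of these data known. Figures were drawn with matplotlib 3.10.9 (Python 3.11.15). The number of arrays limits the precision: the median standard error was 0.12 between CD25+ groups and 0.10 between CD25- groups. No expression value of Nr1h2 was used here. Alternatives were other scalings, filters, moderation, weights, blocks, covariates and arrays left out.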

Additional observations from a re-analysis of the deposited data

Results flagged for a closer look

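In groups of 4 to 7 arrays, a value was listed here where its gap to the nearest other array, as a share of the group's range, passed Dixon's 95% critical value. Of 124 tests, 22 did so, and 21 of the 22 fell on the 4 arrays that stood apart. Chance gives about 1 in 20 for independent tests, but these share arrays, and the 4 arrays were picked from the same values.

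On CD25-CD49f- replicate 7 these genes read low: Fdft1, the squalene synthase, at 5.02, Nsdhl at 7.88, Insig1 at 6.77, Acly at 9.55 and Abca1 at 6.29. On the same array Mvk read high at 6.52, as did Dhcr7 at 9.05 and Fasn at 9.31. On CD25-CD49f- replicate 1, Fdps read low at 5.80.

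On CD25-CD49f+ replicate 1 the low values were those of Hmgcs1 at 8.20, Fdft1 at 7.15, Cyp51 at 6.66, Sc5d at 6.74, Insig2 at 6.90 and Abca1 at 6.58. Mvk at 6.17, Dhcr7 at 8.89 and Scap at 9.13 were high there. On CD25+CD49f- replicate 5, Mvk read 5.23, Idi1 7.77 and Fdps 5.16, all low. The value off those arrays was Tm7sf2 on CD25+CD49f- replicate 2, at 7.12.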

How the results depend on the processing

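Of the 31 genes, 0 were called with CD49f in CD25+ cells, against 2 with array weights, 1 with quantile scaling, 2 without the 4 arrays that stood apart and 0 to 1 with one array left out. With CD49f in CD25- cells 6 were called, against 1 among arrays without Y-linked transcripts, 3 among those with them and 5 to 7 with one array left out. With CD25 in CD49f+ cells 0 were called, against 8 with array weights, 1 with the mean of all probe sets, 7 without the 4 arrays, 1 among arrays without Y-linked transcripts, 1 with the groups compared alone and 0 to 1 with one array left out. With CD25 in CD49f- cells 2 were called, against 7 with array weights, 4 with the mean of all probe sets, 7 without the 4 arrays, 1 and 0 among arrays without and with Y-linked transcripts, 5 with a covariate for the Actb 3' to 5' difference, 1 with the groups alone and 2 to 5 with one array left out (4 without CD25-CD49f- replicate 7, 5 without CD25+CD49f- replicate 5). The interaction called 0, against 5 with array weights, 3 without the 4 arrays, 2 with the Actb covariate and 0 to 2 with one array left out (2 without CD25+CD49f- replicate 5). The share of all genes called moved as well: from 1.82%, 13.4%, 5.72%, 14% and 5.31% in the 5 tests to 4.19%, 20.6%, 16.9%, 20.1% and 12.5% with array weights, and to 3.23%, 19.1%, 13%, 19.7% and 9.4% without the 4 arrays. It was 7.37% and 5.94% with CD49f in CD25- cells among arrays without and with Y-linked transcripts, 7.06% and 5.52% with CD25 in CD49f- cells, and 14.8% there with the Actb covariate. Without CD25-CD49f- replicate 7 it was 15.2% with CD25 in CD49f- cells and 7.28% with CD25 in CD49f+ cells. The shares under the other settings are not given here, so those counts cannot be set against all genes. Genes called under an alternative and over neither 23 nor 19 arrays, beside Srebf2 and Scap, were Scd2 with CD25 in CD49f- cells (0.34 without CD25+CD49f- replicate 5 and with the Actb covariate), Abcg1 in the interaction (0.35 without CD25-CD49f+ replicate 1) and, with array weights, Lss and Scd2 with CD25 in CD49f+ cells, Elovl6 with CD25 in CD49f- cells, and Mvd and Abcg1 in the interaction. Subsets by Y-linked transcripts hold fewer arrays. The cause of the other changes was not tested. The Hmgcs1 difference with CD25 in CD49f- cells, -0.05 and not called, took the other sign among arrays with Y-linked transcripts (0.30), with the Actb covariate (0.063) and without CD25-CD49f- replicates 2, 3 or 5 (0.02, 0.02 and 0.06) or CD25+CD49f- replicate 5 (0.069), and ranged from -0.31 to 0.07 with one array left out. Deviations of the 29 same-numbered pairs correlated from -0.51 to 0.41, with 14 over 0.1. Their median was 0.1, against 0.02 for pairs of unlike number. Among the arrays numbered 2, 3, 4 and 5, Xist and Y-linked transcripts differed between groups. Number 2 showed Y-linked transcripts alone in CD25-CD49f- cells and Xist alone in the other groups. Each of these numbers thus does not stand for 1 mouse in all its groups. For same-numbered pairs alike in these transcripts, whether the number pairs the samples was not settled. With the replicate number as a fixed block the 5 counts were 0, 5, 0, 2 and 0, Nsdhl being the call lost, and as a random block 0, 6, 0, 2 and 0. Signal over background limits dim probe sets, and none was removed for being dim.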
